A study of Mus musculus with 18 samples.

Results

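The genes described here are 7 regulators of p53, several of which p53 itself induces: Mdm2, Mdm4, Ppm1d, Ccng1, Trp53inp1, Huwe1 and Dmtf1. They were taken as every probe set annotated to one of these symbols alone, which gave 16 probe sets of the 20380 with a single symbol, and 7 genes of 12393. Signals came from single-colour arrays of 18 microdissected lung tumours of mice of a mixed C57/B6-129SvJae background, aged 10 weeks. Treated mice received tamoxifen in 2 intraperitoneal injections, and tumours were taken on day 7 after the first. The samples were 6 treated grade 3 tumours, 4 untreated grade 3 tumours, 4 treated grade 2 tumours and 4 untreated grade 2 tumours, where the labels call grade 3 adenocarcinomas and grade 2 adenomas, and the treated tumours p53 restored.

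The labels do not name the alleles. As background known of the study, p53 is silenced in all the mice by a removable stop cassette, and tamoxifen switches on a Cre that is present throughout the body, so restoration is not limited to tumour cells. Untreated tumours thus keep p53 silenced, and whether their hosts received a vehicle is not given in the sources used here. Of the 10 treated tumours, 9 were from a single female, mouse 8688: every one of grade 3 and 3 of grade 2. The other treated tumour, 8639T4 of grade 2, was from a male, and males (8565, 8584, 8629 and 8700) gave all 8 untreated tumours. In grade 3, treatment, mouse and sex cannot be told apart. In grade 2 only 8639T4 separates treatment from sex, and no mouse had both treated and untreated tumours. Tumours of 1 mouse are not independent, so p-values over tumours are too small even with the mouse as a random term.

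p53 is held low by a feedback loop. It induces Mdm2, a ubiquitin ligase that marks p53 for degradation, and Mdm4, a relative of Mdm2, binds p53 and blocks its activation domain. Ppm1d (Wip1) is a phosphatase that removes activating phosphates from p53 and from the kinases that place them, Ccng1 (cyclin G1) recruits a phosphatase to Mdm2, and Trp53inp1 favours an activating phosphorylation of p53. Huwe1 (ARF-BP1) is a ubiquitin ligase for p53 that the Arf protein inhibits, and Dmtf1 (DMP1) is a transcription factor that activates the Arf promoter. Mdm2, Ppm1d, Ccng1 and Trp53inp1 are established p53 targets, while Huwe1 and Dmtf1 act upstream of p53.

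The promoters of the induced genes show where p53 could bind near the start. RefSeq windows of GRCm38.p6, from 250 bases before to 50 bases after each annotated start, were found for 6 of the 7 members, all but Trp53inp1. They were searched for the p53 half-site consensus (length 10, the same read on either strand, no mismatch allowed) and for a full site of 2 adjoining half-sites (length 20, at most 1 mismatch). A half-site was present in the windows of 3 members, Ccng1, Mdm2 and Ppm1d, and in 8.36% of all 32851 windows. A full site was present in Ccng1 alone of the members, and in 29 windows of all, or 0.0883%. Neither window of Mdm4 and none of Huwe1 or Dmtf1 held a half-site, which says only that these letters are not in these windows. The p53 sites of Mdm2 known from the literature lie in its first intron, outside this window. The stretches below carry those matches, with the matched bases in capitals, and each is written 5′ to 3′ on the strand of its gene. Ccng1 is the 250 bases before its start, chr11:40755287-40755536 on the minus strand, with the full site from base -195 to base -176 of the start. Mdm2 is chr10:117710895-117710984 on the minus strand, with its half-site from -186 to -177. Ppm1d is chr11:85311082-85311171 on the plus strand, with its half-site from -132 to -123.
Ccng1: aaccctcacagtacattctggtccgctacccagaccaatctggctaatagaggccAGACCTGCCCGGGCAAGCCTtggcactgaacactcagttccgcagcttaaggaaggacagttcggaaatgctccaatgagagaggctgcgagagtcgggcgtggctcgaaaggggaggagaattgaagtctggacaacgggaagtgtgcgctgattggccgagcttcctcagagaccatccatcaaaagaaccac
Mdm2: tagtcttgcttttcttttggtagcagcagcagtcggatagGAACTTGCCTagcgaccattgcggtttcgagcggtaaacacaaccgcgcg
Ppm1d: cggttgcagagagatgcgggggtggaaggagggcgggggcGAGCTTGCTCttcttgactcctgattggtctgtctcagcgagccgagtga

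All values below are log2 signals per probe set as the authors deposited them, and a difference of 1 on this scale is a doubling of signal. A gene or probe set was tested where it lay above the array median on at least 4 of the 18 arrays. All 7 genes passed by their brightest probe set, and 12 of the 16 probe sets passed. The remaining 4 are described without a test. Differences are those of a limma fit to all 18 tumours with the mouse as a random term, given with their standard error (SE), and p-values were adjusted by Benjamini-Hochberg over all 7300 genes or all 10900 probe sets tested. The fit weights tumours by mouse, so a fitted difference need not equal the plain difference of group means. The arrays correlated with each other at 0.974 to 0.997. The number of mice limits the precision, with 1 in treated grade 3 and 2 or 3 in each other group. Sex genes matched the labels, with Xist between 11.16 and 11.97 in the 9 tumours of the female and between 4.33 and 6.08 in the 9 of males. The excess of 3′ over 5′ signal of control transcripts (actin and Gapdh), a sign of RNA degradation, was 2.62 in 8688T3 and 1.85 in 8639T4, against 1.05 or less in the other tumours. Both are treated tumours.

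Ccng1 had the largest treatment difference of the members in grade 3, and 1 of its 3 probe sets was the only member probe set to pass. On probe set 1450016_at treated grade 3 tumours (6, of 1 mouse) were higher than untreated ones (4, of 3 mice) by 1.84 ± 0.37 (SE). This was a 3.59-fold difference with an adjusted p = 0.0356 in the limma fit. In that comparison 0.367% of all probe sets tested passed. The treated grade 3 tumours ran from 7.26 in 8688T11 through a median of 7.93 to 8.67 in 8688T1. The untreated grade 3 tumours had 6.38 (8584T3), 5.81 (8565T1), 5.92 (8629T10) and 5.79 (8629T12), so the groups did not overlap. The untreated values of this probe set lay above the array median on 1 of 4 arrays, so it was dim in that group.

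The other Ccng1 probe sets lay apart between the same groups without passing. On 1450017_at the treated grade 3 tumours ran from 8.28 through 8.68 to 9.76, and the untreated ones had 6.62, 6.83, 6.90 and 6.72 (8584T3, 8565T1, 8629T10 and 8629T12), a log2 difference of 1.88 ± 0.43 (SE) with a limma adjusted p = 0.063. On the brightest, 1420827_a_at, the treated tumours ran from 11.93 through 12.35 to 12.72 and the untreated ones had 11.42, 11.39, 11.45 and 11.55 in that order of tumours. Its difference was 0.80 ± 0.20 (SE), 1.74-fold, with an adjusted p = 0.0886 over genes. The 3 probe sets agreed in direction but differed in size, the bright one giving the smaller log2 difference. Which transcripts each reads is not given in the sources used here.

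In grade 2 tumours Ccng1 did not pass, and the untreated group was split by mouse. The treated grade 2 tumours 8688T8, 8688T9, 8639T4 and 8688T10 had 7.99, 7.73, 7.87 and 7.72 on 1450016_at. The untreated ones had 7.25 and 7.47 in mouse 8700 and 5.71 and 6.10 in mouse 8565. The tumours of 8700 thus sat just below the treated ones, and those of 8565 at the level of the untreated grade 3 tumours. The difference was 1.21 ± 0.37 (SE) with a limma adjusted p = 0.468, and it was 1.38 ± 0.44 on 1450017_at and 0.50 ± 0.20 on 1420827_a_at, with adjusted p-values of 0.468 and 0.641. The single treated male tumour, 8639T4, had 7.87, 8.49 and 12.06 on 1450016_at, 1450017_at and 1420827_a_at. On the first it lay within the range of the grade 2 tumours of the treated female, mouse 8688. On the others it was the lowest of the treated grade 2 tumours. Without mouse 8688, which leaves 8639T4 alone against the 4 untreated tumours, the limma differences were 1.23 on 1450016_at, 1.04 on 1450017_at and 0.32 on 1420827_a_at, with adjusted p-values of 0.65, 0.787 and 0.932. This fit assumes that the lone tumour varies like the other groups.

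Ordered by group mean on 1450016_at, treated grade 3 (7.90 ± 0.49, SD, n = 6) and treated grade 2 (7.83 ± 0.13, SD, n = 4) lay within their spread of each other. Untreated grade 2 (6.63 ± 0.86, SD, n = 4) and untreated grade 3 (5.97 ± 0.28, SD, n = 4) followed, also within their spread. The treatment difference was not shown to differ between grades, since the interaction was 0.64 ± 0.43 (SE) with a limma adjusted p = 0.641. The call on 1450016_at in grade 3 held in 11 of 23 alternative fits, over which the difference ran from 1.67 to 2.02 and the adjusted p from 0.000482 to 1. It was lost, among others, without any one of 8688T1, 8688T3, 8688T5, 8565T1, 8629T10 or 8629T12, at adjusted p-values from 0.051 to 0.0997, and with sex as a covariate (1.90, adjusted p = 0.296).

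**Figure D1:**
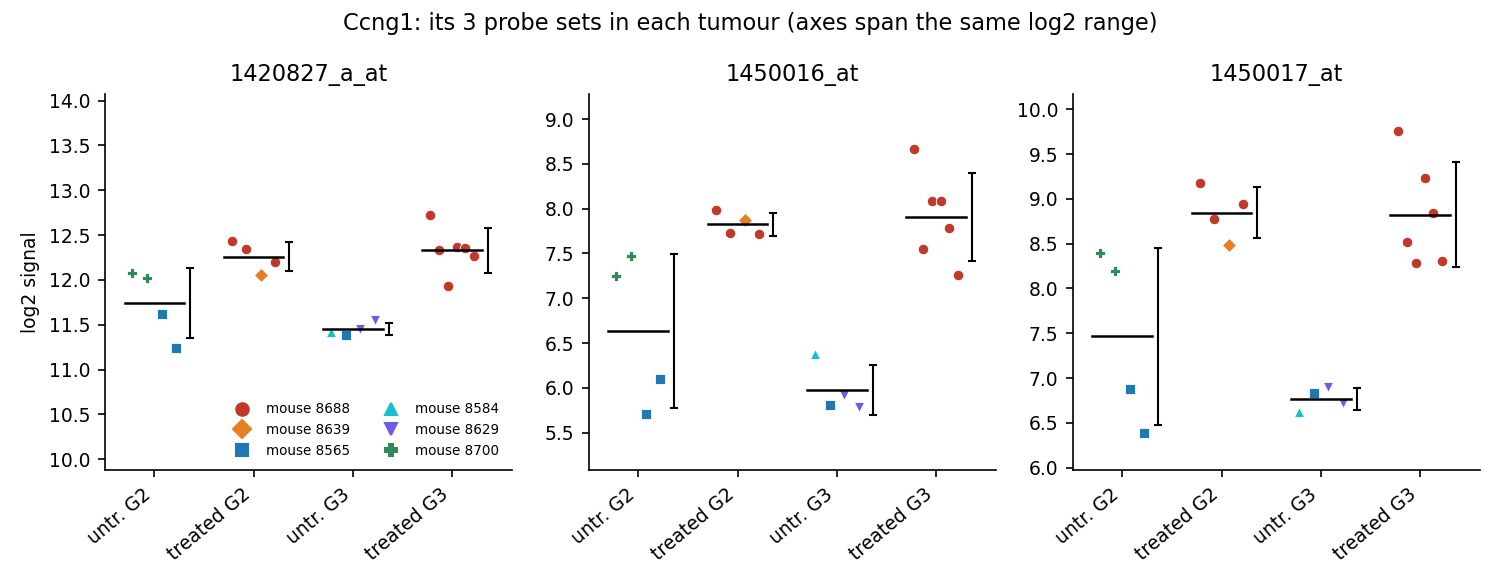
Log2 signal (y axis) of the 3 Ccng1 probe sets in each tumour, by group (x axis: untreated and treated grade 2, then grade 3), with symbols by mouse, bars at group means and whiskers of 1 SD. On 1450016_at the treated grade 3 tumours lie between 7.26 and 8.67 and the untreated ones between 5.79 and 6.38, while untreated grade 2 splits into mouse 8700 above and mouse 8565 below.

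Mdm2 was slightly higher in treated grade 3 tumours and level in grade 2, and passed in neither. On 1423605_a_at the treated grade 3 tumours ran from 10.06 (8688T11) through 10.24 to 10.79 (8688T1), and the untreated ones had 10.01 (8584T3), 9.90 (8565T1), 10.01 (8629T10) and 9.86 (8629T12). The groups did not overlap, though the lowest treated tumour lay only just above the highest untreated one. The log2 difference was 0.39 ± 0.20 (SE; 95% interval -0.03 to 0.82), a limma adjusted p = 0.592. In grade 2 the treated tumours 8688T8, 8688T9, 8639T4 and 8688T10 had 10.09, 10.09, 10.19 and 10.30, and the untreated ones had 10.49 and 10.23 (8700) and 9.73 and 10.27 (8565). These overlapped fully, with a difference of -0.01 ± 0.20 (95% interval -0.44 to 0.42). The interaction for Mdm2 was 0.40 ± 0.23 (SE), adjusted p = 0.581. Its second probe set, 1427718_a_at, exceeded the array median on 2 of 18 arrays, both of treated grade 3 tumours, and was not tested. There 8688T1 had the highest signal of all 18 tumours at 6.95 and 8688T3 the lowest at 4.58.

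Mdm4 did not pass on either tested probe set, and these disagreed in sign in grade 3. On 1460542_s_at, a type of probe set whose probes can match several transcripts, the treated grade 3 tumours ran from 8.13 (8688T3) through 9.11 to 9.39 (8688T11). The untreated ones had 9.71 (8584T3), 8.88, 8.89 and 8.82, so all but 8584T3 lay inside the treated range. The log2 difference was -0.22 ± 0.30 (SE; 95% interval -0.86 to 0.42), adjusted p = 0.847. It was 0.07 without the tumours of high 3′ excess and without 8584T3, -0.39 without mouse 8565 and -0.81 ± 0.47 with sex as a covariate, and none of these passed. On 1419558_at it was 0.13 ± 0.15 in grade 3 and -0.22 ± 0.16 in grade 2, with limma adjusted p-values of 0.838 and 0.831. In grade 2 the 4 treated tumours lay between 7.40 and 7.46 on 1419558_at and the untreated ones between 7.53 and 7.86, the only tested member probe set whose treated tumours all lay lower in either grade.

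Ppm1d passed in no comparison, and its largest difference was between the untreated grades. Its 1 probe set, 1449092_at, ran from 6.71 through 6.95 to 7.21 in treated grade 3 tumours, against 6.91, 6.55, 6.96 and 6.92 in untreated ones (8584T3, 8565T1, 8629T10, 8629T12). The log2 difference was 0.09 ± 0.16 (SE) with a limma adjusted p = 0.886. The untreated grade 2 tumours had 6.71 and 6.74 in mouse 8700 and 6.11 and 6.10 in mouse 8565, while the treated ones had 6.87, 6.87, 6.77 and 6.66. The treatment difference in grade 2 was 0.35 ± 0.17, unadjusted p = 0.0498 and adjusted p = 0.711. Grade 3 exceeded grade 2 among untreated tumours by 0.42 ± 0.15, unadjusted p = 0.0119 and adjusted p = 0.281. Both values were larger without mouse 8700 (0.61 and 0.64) and smaller without mouse 8565 (0.07 and 0.20), and none of these passed. Within 8565 the grade 3 tumour, at 6.55, lay above both grade 2 tumours.

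Trp53inp1 was higher in treated tumours of both grades without passing. On 1416926_at the treated grade 3 tumours lay within 11.87 to 12.09, with a median of 12.04. The untreated ones had 11.34 (8565T1), 11.24 (8629T10) and 11.31 (8629T12), and 8584T3 stood apart at 11.98, inside the treated range. The log2 difference was 0.48 ± 0.19 (SE), 1.39-fold, with a limma adjusted p = 0.403. Without 8584T3, the untreated tumour inside the treated range, it was 0.69 with a limma adjusted p = 0.0222. The difference passed in 3 of 25 alternatives, over which it ran from 0.29 to 0.69 and the adjusted p from 0.00146 to 1. In grade 2 the groups did not overlap: the treated tumours had 12.19, 12.13 and 12.19 in mouse 8688 and 12 in 8639T4, and the untreated ones 11.72 and 11.56 (8700) and 11.51 and 10.90 (8565). That difference was 0.68 ± 0.19 (SE), 1.60-fold, unadjusted p = 0.00212 and adjusted p = 0.298, the smallest p of the 7 genes in grade 2. On this probe set the treated male 8639T4 was the lowest of its group and still above every untreated grade 2 tumour. By group mean, treated grade 2 (12.13 ± 0.09, SD) and treated grade 3 (12.02 ± 0.08) led, followed by untreated grade 3 (11.47 ± 0.34) and untreated grade 2 (11.42 ± 0.36), which did not differ beyond their spread. The dimmer probe set 1416927_at ranged from 4.54 (8688T3) to 7.60 (8688T1) within the treated grade 3 group, and its difference there was 0.74 ± 0.64 with an adjusted p of 0.778. In grade 2 its difference was 0.21 ± 0.65 (adjusted p = 0.959). There 8639T4, with its 3′ excess, had 4.82, below every untreated grade 2 tumour (5.58 to 6.29), and without mouse 8688 the difference was -0.97.

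Huwe1 and Dmtf1, the upstream members, showed no difference that passed. On 1415703_at Huwe1 ran from 9.84 through 10.03 to 10.39 in treated grade 3 tumours, and the untreated ones had 9.82, 9.99, 10.07 and 10.13. Its log2 difference was 0.18 ± 0.18 (SE; 95% interval -0.19 to 0.55) in grade 3 and 0.06 ± 0.18 (-0.32 to 0.44) in grade 2, with limma adjusted p-values of 0.782 and 0.958. The highest Huwe1 signals of the 18 tumours were those of 8639T4 (10.52) and 8688T3 (10.39), the tumours with the 3′ excess, and without them the grade 3 difference was 0.00. Huwe1 lies on the X chromosome, and the treated grade 3 tumours are all female against males. With sex as a covariate, which only 8639T4 separates from treatment, the difference was 0.73 ± 0.24 in grade 3 (unadjusted p = 0.00777, limma adjusted p = 0.295) and 0.50 ± 0.21 in grade 2. On the other tested Huwe1 probe set, 1424949_at, the difference without sex in the model was 0.31 ± 0.18 (SE) in grade 3. It was -0.02 ± 0.18 in grade 2, and the limma adjusted p-values were 0.669 and 0.986. Huwe1 probe set 1448056_at exceeded the array median on no array. Dmtf1 on 1422636_at ran from 9.16 through 9.93 to 10.11 in treated grade 3 tumours, while the untreated ones had 11.15 (8584T3), 9.72, 9.61 and 9.28. The difference was -0.32 ± 0.37 (SE) in grade 3 and 0.15 ± 0.38 in grade 2, with adjusted p-values of 0.818 and 0.944. The value in grade 3 moved widely: it was 0.20 without 8584T3, -0.04 without the tumours of high 3′ excess, -0.58 without mouse 8565 and -1.07 ± 0.58 with sex as a covariate, and none of these passed. With sex as a covariate the grade 2 difference was -0.44. Dmtf1 probe sets 1439376_x_at and 1456697_x_at were below the array median on all arrays.

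**Figure D2:**
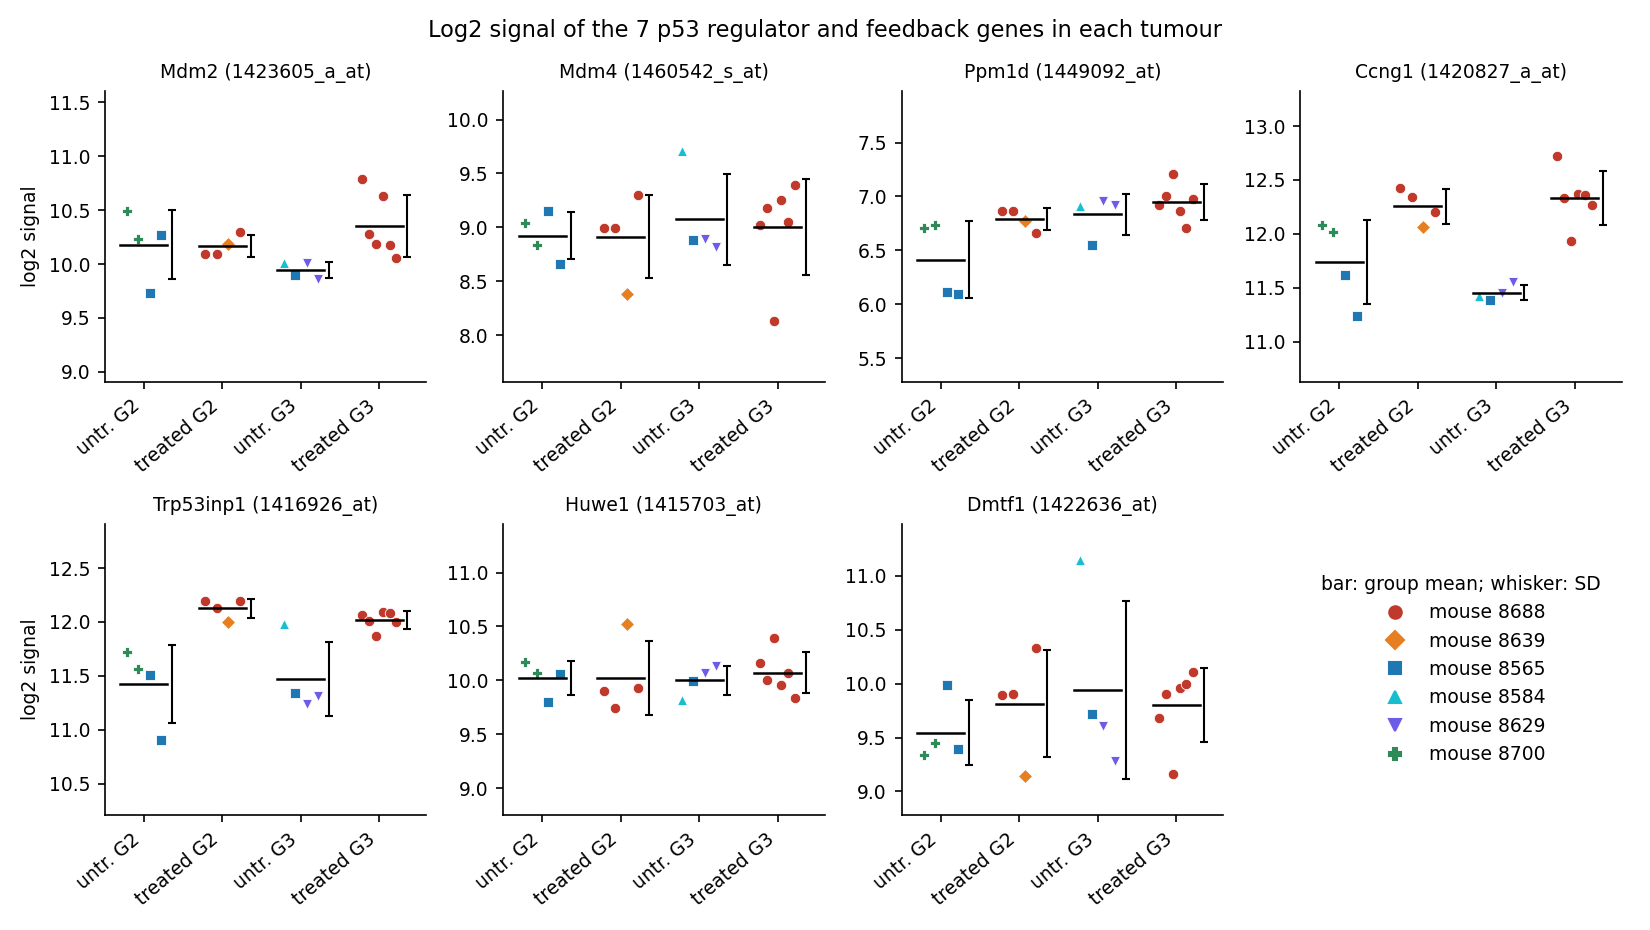
Log2 signal (y axis, spanning the same range in each panel) of the brightest probe set of each of the 7 genes in each tumour, by group (x axis: untreated and treated grade 2, then grade 3), with symbols by mouse, bars at group means and whiskers of 1 SD. Treated and untreated grade 3 tumours do not overlap for Mdm2 and Ccng1, and 8584T3 stands high among untreated grade 3 tumours for Mdm4 (9.71), Trp53inp1 (11.98) and Dmtf1 (11.15).

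At gene level, 0 of the 7 members passed in any of the 5 comparisons by limma. In treatment in grade 3, 0.466% of all genes passed, in treatment in grade 2 0.0685%, and in grade among untreated tumours 0.178%. In the interaction and in grade among treated tumours 0 genes passed by limma, while 9.11% and 1.93% had an unadjusted p under 0.05. Of the member probe sets, Ccng1 1450016_at in grade 3 alone passed, where the shares of all probe sets were 0.367% in grade 3, 0.0459% in grade 2, 0.138% in grade among untreated tumours and 0 in the other comparisons. At an unadjusted p under 0.05, the members were Ccng1 and Trp53inp1 in grade 3, where 8.84% of all genes reached it. In grade 2 they were Ppm1d, Ccng1 and Trp53inp1, against 6.99%, and in grade among untreated tumours Ppm1d, against 12.5%. Groups without overlap were found for 2 of 7 members in grade 3 (Mdm2 and Ccng1; 4.92% of all genes) and for 1 of 7 in grade 2 (Trp53inp1; 8.08%). Over the 12 tested probe sets they were found for 4 in grade 3 (Mdm2 and all 3 of Ccng1; 4.52% of all probe sets). In grade 2 they were found for 4 (Ccng1 1450016_at and 1450017_at, Trp53inp1 1416926_at and, lower, Mdm4 1419558_at; 8.13%). In grade 3 and in grade 2 alike, 5 of 7 members had a difference above 0, against 56.9% and 53.9% of all genes. The medians of the members were 0.18 and 0.15, against medians of 0.04 and 0.02 over all genes.

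**Figure D3:**
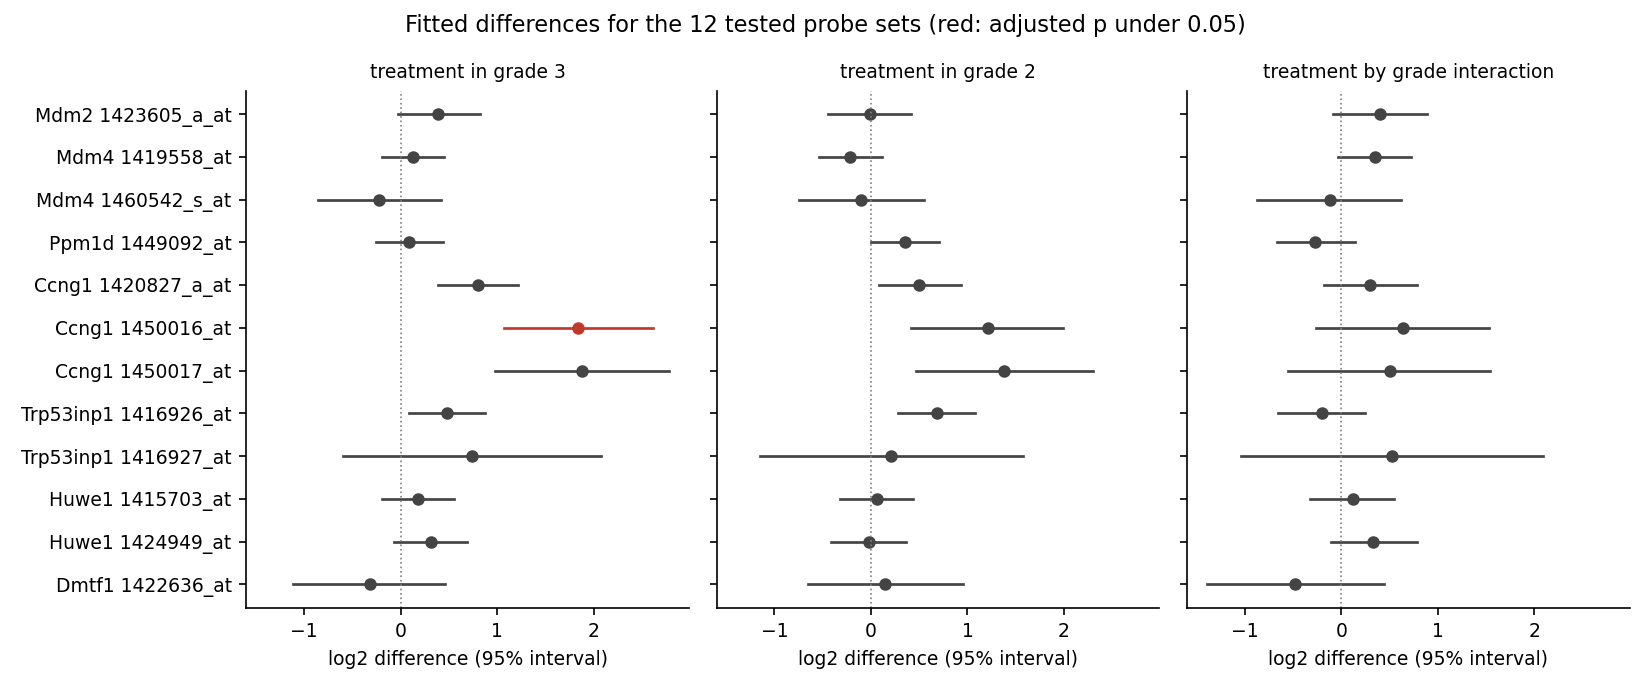
Fitted log2 differences (x axis) with 95% intervals for the 12 tested probe sets (y axis) under treatment in grade 3, treatment in grade 2 and their interaction. Ccng1 1450016_at in grade 3 (1.84) is the 1 value with an adjusted p under 0.05, the other Ccng1 intervals for treatment also lie above 0, and the Mdm4, Huwe1 and Dmtf1 intervals all include 0.

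Grade by itself moved no member past the threshold. Among untreated tumours, grade 3 minus grade 2 was -0.25 ± 0.18 (SE) for Ccng1 on 1420827_a_at, -0.21 ± 0.18 for Mdm2 and 0.39 ± 0.34 for Dmtf1, with limma adjusted p-values of 0.554, 0.626 and 0.633. Without mouse 8700 the Ccng1 value was 0.00, and without 8584T3 the Dmtf1 value was 0.00. On Mdm4 1419558_at the difference was -0.36 ± 0.14, unadjusted p = 0.0183 and adjusted p = 0.333. With mouse as a fixed block, which reads grade within mouse 8565, Ccng1 was -0.04, Dmtf1 was 0.03 and Ppm1d was 0.45 ± 0.19, and none of these passed. Among treated tumours the gene-level differences lay between -0.12 (Trp53inp1) and 0.19 (Mdm2), each with an adjusted p of 0.997.

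The untreated grade 2 tumours came from 2 mice, 8700 and 8565. These were compared on the tested member probe sets, several of which read the same gene. Both tumours of 8700 were higher than both of 8565 on 7 of the 12 tested probe sets (58.3%), against 22.7% of all 10900 probe sets. The 7 were Ppm1d, all of Ccng1, both of Trp53inp1 and Huwe1 1415703_at. Mdm4 1419558_at and Huwe1 1424949_at were lower in both tumours of 8700, so the tested Huwe1 probe sets went opposite ways. The share of all probe sets that were lower is not given here. Mdm2, Dmtf1 and Mdm4 1460542_s_at overlapped between the 2 mice. Ccng1 1450017_at had 8.40 and 8.19 in 8700 and 6.88 and 6.39 in 8565, which are means of 8.30 and 6.63. The grade 2 treatment differences were larger without 8700 than without 8565. For Ccng1 they were 1.87 without 8700 and 0.48 without 8565 on 1450016_at, and 0.79 and 0.18 on 1420827_a_at. For Trp53inp1 on 1416926_at they were 0.86 without 8700 and 0.47 without 8565, and none of these passed.

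Across the 18 tumours, members formed pairs that are given as a description, since tumours share mice and RNA quality. Ccng1 and Trp53inp1 correlated at r = 0.83 (Spearman's rho 0.86), and at 0.75 without the tumours farthest from the Ccng1 median. With group means removed the r was 0.58. Mdm4 1460542_s_at and Dmtf1 correlated at r = 0.87 (rho 0.90), at 0.84 without the tumours farthest from the Mdm4 median and at 0.90 without those of high 3′ excess. Both were lowest in 8688T3 and 8639T4 and highest in 8584T3. Mdm4 and Huwe1 correlated at r = -0.78 (rho -0.62), and at -0.54 without the tumours of high 3′ excess. Mdm2 correlated with Ccng1 at r = 0.61 (rho 0.51) and with Mdm4 at 0.01.

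**Figure D4:**
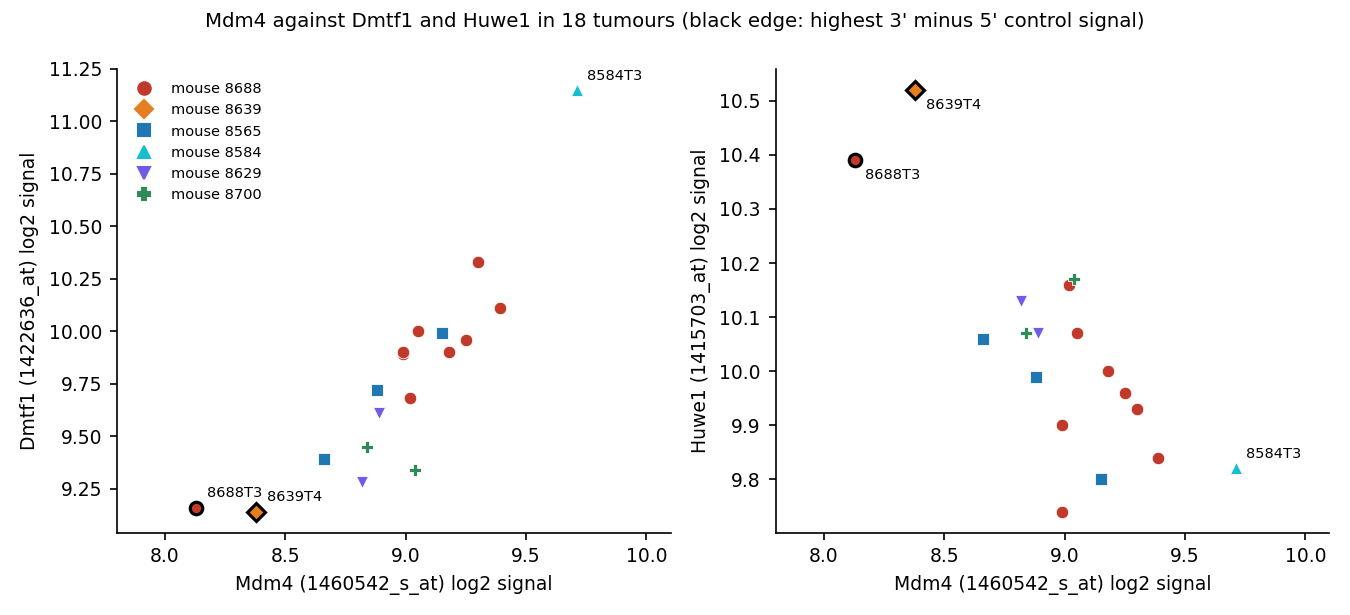
Log2 signal of Dmtf1 (left, y axis) and Huwe1 (right, y axis) against that of Mdm4 1460542_s_at (x axis) in 18 tumours, with symbols by mouse and black edges on the tumours of highest 3′ minus 5′ control signal. These 2, 8688T3 and 8639T4, are lowest for Mdm4 (8.13 and 8.38) and Dmtf1 (9.16 and 9.14) and highest for Huwe1 (10.39 and 10.52).

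Of all other genes tested, those whose signal over the 18 tumours was most like that of Ccng1 were Psrc1 (r = 0.94), a microtubule regulator, and Slc19a2 (r = 0.93), a thiamine transporter. Trp53inp1 was most like Per2 (0.94), a circadian clock repressor, and Tiparp (0.93). Mdm2 was most like Phykpl (0.82) and Crip2 (0.80), the lowest of these likenesses. Ppm1d was most like Gpx4 (0.87), which reduces lipid peroxides, and Il34 (0.85), a ligand of the Csf1 receptor. Zc3h14, a protein that binds polyadenosine, was near the top for both Mdm4 (0.91) and Dmtf1 (0.91). Mdm4 was then most like Sfswap (0.90), a splicing regulator, Dmtf1 like Eml5 (0.93), and Huwe1 like Plp2 (0.90) and Selenbp1 (0.89).

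Other genes of the pathway were read from 2 lists. Of 52 other regulators of p53 stability and activity, 41 were on the array and 32 were tested, and by limma 0 passed in any direction in any of the 5 comparisons. In grade 3, 1 reached an unadjusted p under 0.05 upward and 0 downward, and the median difference was -0.02 against 0.04 over all genes. The 4 with the largest differences in grade 3 were Tbx2, a repressor of the Arf locus (0.95 ± 0.25, adjusted p = 0.115), Mapk8, the kinase JNK1 (-0.38 ± 0.23, adjusted p = 0.649), Rchy1, the ubiquitin ligase Pirh2 (0.37 ± 0.28, adjusted p = 0.727), and Kat2b, an acetyltransferase of p53 (-0.25 ± 0.14, adjusted p = 0.64). Tbx2 lay between 6.80 and 7.32 in treated grade 3 tumours and between 5.63 and 6.58 in untreated ones, without overlap. In grade 2 its difference was 0.08 ± 0.25, and its interaction of 0.87 ± 0.29 had a limma adjusted p of 0.539.

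Of 55 other p53 targets, 45 were on the array and 34 were tested, and 0 passed by limma in either direction in any comparison. In grade 3, 12 reached an unadjusted p under 0.05 upward and 1 downward, 27 lay above 0, and the median was 0.28. Over all genes tested, 8.84% reached that p in either direction, 56.9% lay above 0, and the median was 0.04. In grade 2 the counts were 9 upward and 1 downward, against 6.99% of all genes in either direction. There 19 of the 34 lay above 0, against 53.9% of all genes, and the median was 0.15 against 0.02. The 4 largest in grade 3 were Psrc1 (3.76 ± 1.05, adjusted p = 0.144), Slc19a2 (1.71 ± 0.40, adjusted p = 0.071), Cdkn1a, the cyclin-dependent kinase inhibitor p21 (1.53 ± 0.44, adjusted p = 0.151), and Phlda3, an inhibitor of Akt (1.52 ± 0.38, adjusted p = 0.103). Psrc1 was between 7.29 and 9.97 in treated and between 2.67 and 5.14 in untreated grade 3 tumours, while Cdkn1a had medians of 11.24 in treated and 9.27 in untreated ones. In untreated grade 3 tumours Psrc1 lay above the array median on 0 of 4 arrays, and Slc19a2 and Phlda3 on 1 of 4. These 3 genes were thus dim in that group. On its brightest probe set, the measure used for the 4 targets named, Ccng1 (0.80) was below these 4. Its other probe sets gave 1.84 and 1.88, but other probe sets of the 4 targets are not given here for comparison. Trp53inp1 (0.48) and Mdm2 (0.39) were also below the 4 targets on their brightest probe sets. The 4 were picked as the largest of the 34, so a place below them does not rank the members against the list. Ccng1, Trp53inp1 and Mdm2 lay above the median of the list, 0.28. The other members, Huwe1 (0.18), Ppm1d (0.09), Mdm4 (-0.22) and Dmtf1 (-0.32), lay below it. The differences between genes were not tested.

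**Figure D5:**
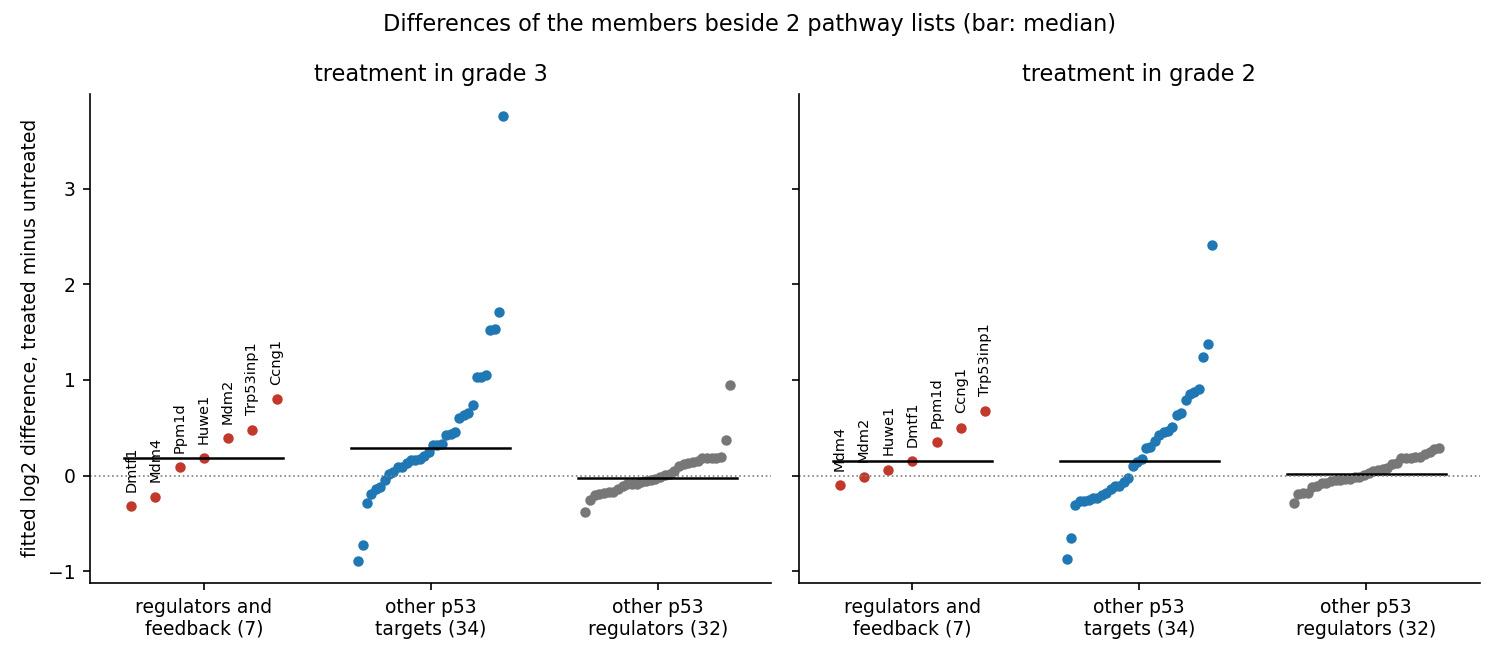
Fitted log2 difference, treated minus untreated (y axis), of the 7 genes beside 34 other p53 targets and 32 other p53 regulators (x axis) in grade 3 and grade 2, with bars at medians. In grade 3 the members run from -0.32 (Dmtf1) to 0.80 (Ccng1), and the highest other target is Psrc1 at 3.76.

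In whole-tumour RNA, fewer cells of a type and less RNA per cell cannot be told apart. Of the alveolar type 2 markers 5 of 6 were measured. Their mean log2 signal lay between 10.23 and 11.05 in every group, with Nkx2-1 below the array median throughout. Without normal lung among the samples, these values do not test tumour identity. Mitosis genes (5 of 6 measured) had mean signals of 6.43 to 7.32 in treated and 7.06 to 8.85 in untreated grade 3 tumours, and of 5.74 to 6.93 against 7.18 to 8.19 in grade 2. Erythroid genes (3 of 3) lay between 3.70 and 4.09 in treated and between 5.14 and 5.74 in untreated grade 3 tumours, with Hba-a1 and Alas2 below the array median in all tumours. In grade 2 they lay between 3.98 and 4.34 against 5.74 and 5.91. Alveolar type 1 markers (5 of 5) were 10.78 to 11.28 in treated and 10.19 to 10.63 in untreated grade 3 tumours, and overlapped in grade 2. Fibroblast markers (5 of 5) were 10.17 to 10.52 in treated and 10.72 to 11.30 in untreated grade 2 tumours, and B cell markers (3 of 4) 5.11 to 5.92 against 6.35 to 7.20, with Cd79a below the array median. Club cell markers (3 of 3) had medians of 8.43 in treated and 10.66 in untreated grade 3 tumours, with ranges of 6.33 to 9.80 and 9.73 to 11.15, and medians of 10.05 and 11.59 in grade 2, and the ranges overlapped in both grades. Treated and untreated ranges of mitosis, fibroblast and B cell lists thus lay apart in grade 2 and overlapped in grade 3. Only the erythroid ranges lay apart in both grades. Markers of alveolar type 2, macrophage, neutrophil, T, endothelial and ciliated cells overlapped in both grades. The part of these lists in the differences of Ccng1, Trp53inp1 and the other members was not tested.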

How the data were processed

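Total RNA (100 ng per tumour) was extracted with Trizol, amplified with the Nugen Ovation system and labelled with biotin, per the labels' protocols. Per the submitters' processing notes, GCRMA 2.20.0 under R 2.11.0 produced the deposited log2 signal of each probe set. This method quantile normalises, which takes out differences in total RNA. Any other upstream step is not given in the sources used here. Of 22690 probe sets, 64 were controls, 691 had several symbols and 1555 none, and p53's own gene is not analysed here. Genes were represented by their probe set with the highest mean.

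limma 3.58.1 in R 4.3.3 fitted 4 group means with mouse as a random block (correlation 0.259, 14 residual degrees of freedom), with a threshold of 0.05, and was tested on simulated data. The members, pathway lists, marker lists and tests were chosen with earlier results of these data known. All members were named, with 2 most alike genes each and the 4 largest grade 3 differences per list. Alternatives were other mouse, sex, normalization, filter, probe set, prior and weight settings, and leaving out tumours or mice. Promoter windows came from RefSeq.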

Additional observations from a re-analysis of the deposited data

Results flagged for a closer look

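Within groups of 4 to 6 tumours, 6 of the 64 group and probe set combinations held 1 tumour far from the others by Dixon's criterion, which chance flags in about 1 of 20 groups. Mdm4 on 1460542_s_at was low in 8688T3 (8.13) among treated grade 3 tumours and high in 8584T3 (9.71) among untreated grade 3 tumours. Trp53inp1 on 1416926_at was high in 8584T3 (11.98) of the same untreated group. Ppm1d on 1449092_at was low in 8565T1 (6.55) of that group. Among untreated grade 2 tumours, Trp53inp1 on 1416927_at was high in 8700T3 (6.29) and Dmtf1 on 1422636_at was high in 8565T3 (9.99).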

How the results depend on the processing

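The 60 member differences were recomputed under alternatives, giving 1505 values, of which 1467 kept direction and side of the threshold, 19 newly passed, 12 no longer passed and 7 reversed. A difference within 1 SE of 0 (29 of the 60) was given no direction, and such values changed sign in 93 of 720 cases. The alternatives were planned, but with earlier results of these data known. The cause of a change was not tested.

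The Ccng1 call on 1450016_at in grade 3 (1.84) was lost with 1 mean per mouse and group (1.89), with sex in the model (1.90), with other groups left out of the fit (1.92), and without the tumours of high 3′ excess (1.79), mouse 8565 (1.85) or mouse 8629 (1.67). Leaving out 1 tumour at a time it ran from 1.69 to 2.02.

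In grade 3, member genes called went from 0 to 2 with no mouse term and with array weights, and to 1 with the mean of probe sets and without the tumours of high 3′ excess. Leaving out 1 tumour gave 0 to 2, the 2 (Ccng1 and Trp53inp1) without 8584T3. Member probe sets called went from 1 to 3 with no mouse term and 5 with array weights. They went to 0 with mouse means, with sex in the model, with other groups left out of the fit, and without mouse 8565 or 8629. Leaving out 1 tumour gave 0 to 4, the 4 without 8584T3. Array weights, whose estimated mouse correlation was 0.003 against 0.259, called 3 member genes and 4 probe sets in grade 2, and 1 and 3 in grade among untreated tumours. Over all genes, calls in grade 3 ran from 0 to 374 around 34, in grade 2 from 0 to 1975 around 5, in the interaction from 0 to 124 around 0 and in grade among untreated tumours from 0 to 844 around 13; each highest count came with array weights.

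Reversed values were Huwe1 in grade 3 with array weights (-0.01) and Trp53inp1 1416927_at in grade 3 with sex as a covariate (-0.75). For grade in untreated tumours, Ccng1 without mouse 8700 gave 0.00 at gene level, 0.03 on 1450016_at and 0.15 on 1450017_at, which with mouse as a fixed block gave 0.19. Dmtf1 ran from 0.00 without 8584T3 to 0.57 when 1 tumour was left out. Treatment could not be fitted with mouse as a fixed block, since no mouse had treated and untreated tumours. Grade could, within 8565 or 8688, and there no member passed.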
